A study of Mus musculus with 2 samples.

Results

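Expression of 7 genes that encode subunits of NMDA-type and delta-type glutamate receptors (Grin1, Grin2a, Grin2b, Grin2c, Grin2d, Grin3a and Grid1) was followed through the cell classes of the mouse hippocampus. The genes were taken by name from the 30223 genes of the deposited table, and all 7 were found. Hippocampal cells came from wild-type control mice and from mice homozygous for the knock-in Pigv341E, both of strain C57Bl.6/J. Pigv encodes a mannosyltransferase that acts in the synthesis of the GPI anchor, the glycolipid that holds many proteins on the cell surface. For each genotype, 8 hippocampi of 4 mice were dissociated by mechanical means in the cold, the cells were pooled into 1 library made by the 10x Genomics droplet method, and the libraries shared a sequencing lane. With 1 library per genotype, genotype and library cannot be told apart, and no test between genotypes was possible. Sex and age of the mice are not given in the sources used here.

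NMDA receptors are ligand-gated cation channels that open when glutamate and a co-agonist, glycine or D-serine, are bound and the block by magnesium is relieved by depolarisation. They are tetramers that contain the obligatory subunit GluN1, made from Grin1, together with GluN2 subunits (Grin2a to Grin2d) or GluN3 subunits (Grin3a, Grin3b). The GluN2 subunit sets the opening kinetics and the strength of the magnesium block, and in the forebrain GluN2B precedes GluN2A during development. GluN3A lowers calcium permeability and magnesium block. The delta receptor GluD1, made from Grid1, resembles these receptors in sequence but acts mainly as a synapse organiser that binds cerebellins, which in turn bind neurexins.

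There were 7094 wild-type and 8836 knock-in cells, and 28 cell barcodes occurred in both libraries. The deposited values were whole numbers already corrected for depth by the authors, with totals of 4846 to 14501 per cell, so the sequencing depth of a cell is unknown and a 1 in the table may not stand for a counted molecule. The median number of genes with a value above 0 was 3122 per wild-type cell and 3736 per knock-in cell, and the median mitochondrially encoded share was 0.123% and 0.219%. The level of a gene in a class is the sum of its values over the sum of all values in those cells, per 10000. Pairs of values below give the wild-type library and then the knock-in library. Pigv itself had a level of 0.0886 and 0.1004 over all cells, which does not check the genotype, since a changed allele can still be transcribed.

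Cells were clustered without the 7 genes, and clusters were named from marker genes, with the ending "-like" because the names rest on markers alone. This gave 15 classes that each held 50 or more cells per library. The hippocampal excitatory classes were dentate granule-like (1455 and 1448 cells), CA1-like (728 and 729), CA3-like (300 and 344) and subiculum-like (144 and 197). Of the markers of these 4 classes, 6 of 8, 6 of 8, 7 of 8 and 5 of 6 were highest in the class they name. The cortex excitatory-like class (191 and 329 cells) was the weakest of the 15, with 2 of 8 markers highest there. Interneuron-like cells were split into an Lhx6 type (63 and 114 cells) and an Adarb2 type (57 and 72 cells), named for transcription and RNA-editing factors of the medial and caudal ganglionic lineages. Interneuron-like cells of neither type (35 and 69 cells) are not among the 15 classes. The remaining classes were Cajal-Retzius-like, immature neuron-like, astrocyte-like, oligodendrocyte precursor-like, mature oligodendrocyte-like, microglia-like, fibroblast-like and choroid plexus-like. A further 11 clusters with 795 and 1477 cells stayed unnamed.

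On GRCm38 with GENCODE M21, Grin1 lies on chromosome 2 at 25291181 to 25319187, Grin2a on chromosome 16 at 9567898 to 9995560 and Grin2b on chromosome 6 at 135713233 to 136173511. Grin2c lies on chromosome 11 at 115249169 to 115267243, Grin2d on chromosome 7 at 45831883 to 45878378 and Grin3a on chromosome 4 at 49661611 to 49845744, all 6 on the minus strand. Grid1 lies on the plus strand of chromosome 14 at 34820108 to 35583379. All 7 are protein-coding. Gene length ranged from 18.1 kb for Grin2c to 763 kb for Grid1, so levels are compared below between classes for 1 gene and never between genes. An antisense gene, Grin1os, overlaps the end of Grin1, and whether the counting used strand is not given in the sources used here. Its level was 0.0147 and 0.0141 over all cells.

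RefSeq promoter sequences for GRCm38.p6 were matched by symbol for 3 of the 7 genes, Grin1, Grin2c and Grin2d. Those of Grin1 and Grin2c are printed because these genes had unlike patterns below, Grin1 being present in every neuronal class and Grin2c highest in astrocyte-like cells. That of Grin2d is not printed, since its window overlaps an annotated untranslated region. Each line gives the 250 bases before the annotated start, 5′ to 3′ on the gene's strand, with CACGTG (an E-box) and GGGCGG or CCGCCC (a GC box) in capitals.
Grin1 promoter: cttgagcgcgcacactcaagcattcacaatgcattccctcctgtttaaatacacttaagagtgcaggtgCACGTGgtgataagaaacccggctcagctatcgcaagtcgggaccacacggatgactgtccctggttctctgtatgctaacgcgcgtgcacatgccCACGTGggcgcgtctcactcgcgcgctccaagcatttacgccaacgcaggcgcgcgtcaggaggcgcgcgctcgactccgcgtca
Grin2c promoter: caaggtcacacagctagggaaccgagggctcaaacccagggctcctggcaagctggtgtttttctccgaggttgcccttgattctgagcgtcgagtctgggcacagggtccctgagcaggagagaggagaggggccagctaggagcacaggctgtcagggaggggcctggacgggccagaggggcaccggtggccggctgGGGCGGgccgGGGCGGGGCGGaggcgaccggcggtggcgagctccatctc
The first window is chr2:25319188-25319437 and the second is chr11:115267244-115267493, both on the minus strand. Grin1's window held CACGTG 2 times and no GC box, with 27 CpG dinucleotides and a GC content of 58.8%. Grin2c's window held GGGCGG 3 times, the last pair overlapping by 1 base, and no CACGTG, with 15 CpG dinucleotides and a GC content of 68.8%. The window of Grin2d held neither a GC box nor CACGTG. Among 32851 promoters of the same table, 6.02% held CACGTG and 32.7% held a GC box on either strand. The median promoter held 6 CpG dinucleotides and had a GC content of 52.4%. A match is a description of the letters and no evidence of binding.

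**Figure D1:**
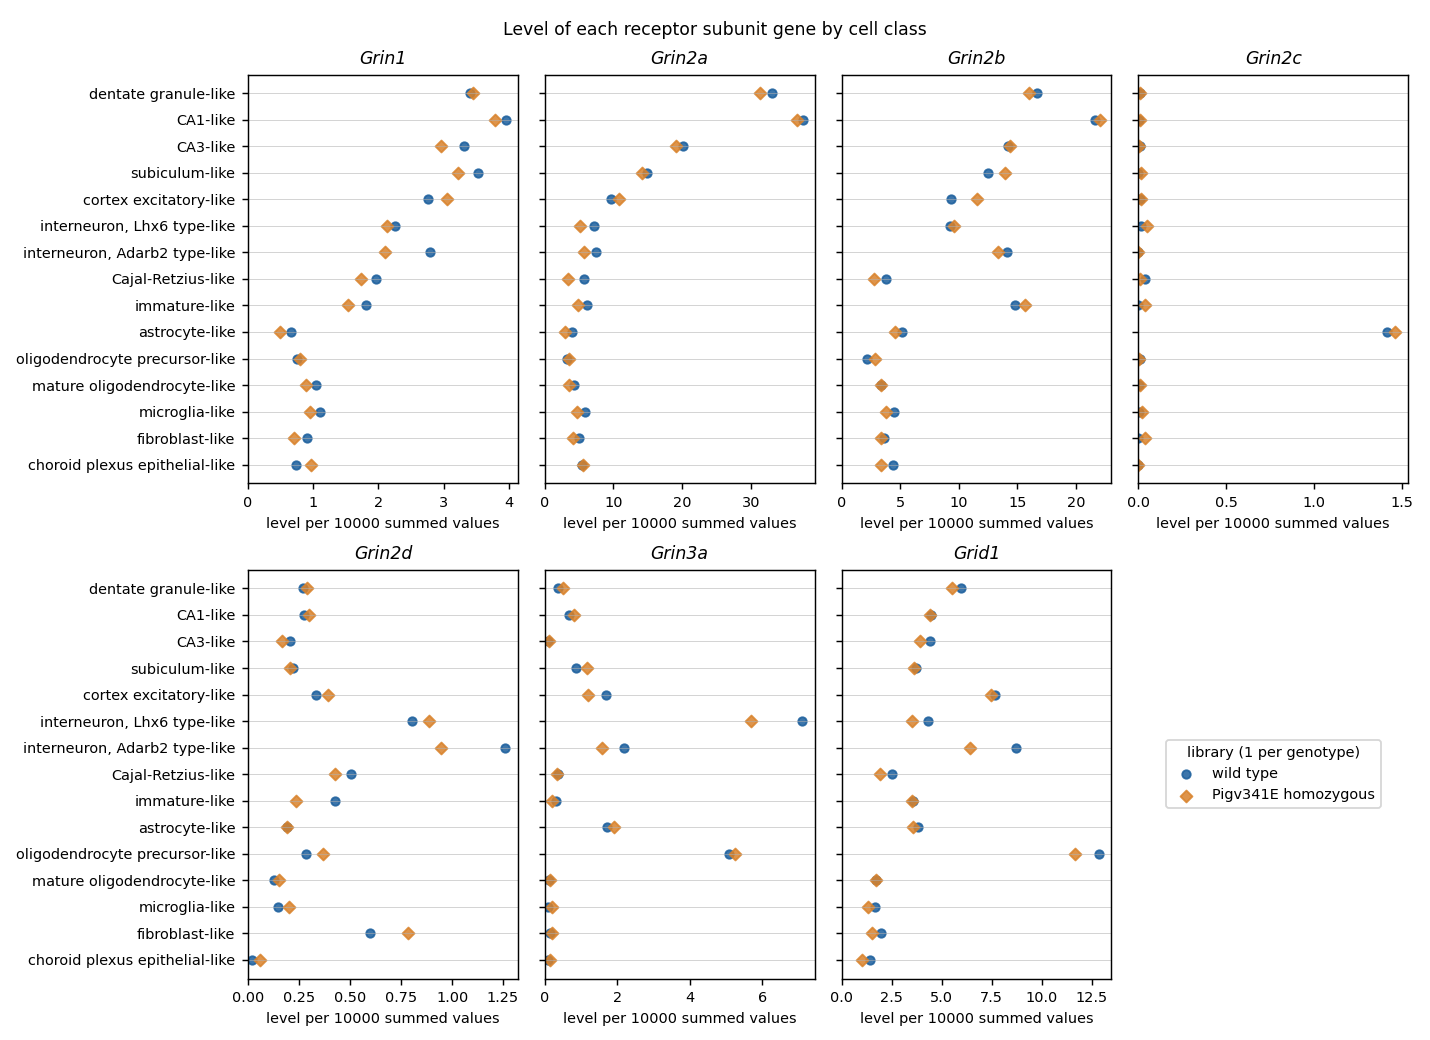
Level of each gene (per 10000 summed values, x axis) in the 15 cell classes (y axis), with a circle for the wild-type and a diamond for the knock-in library and a separate scale for each gene. Grin1, Grin2a and Grin2b are highest in CA1-like cells, Grin2c is above 1 in astrocyte-like cells only, Grin3a is high in Lhx6-type interneuron-like and oligodendrocyte precursor-like cells, and Grid1 is highest in oligodendrocyte precursor-like cells.

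Among the named classes with 50 or more cells per library, each of the 7 genes had the same top class in both libraries. That class lay apart from the next, meaning that both of its libraries were above both of the next class. For Grin2d this leaves out the interneuron-like cells of neither type, which are given below. The obligatory subunit gene Grin1 was highest in CA1-like neurons, at a level of 3.96 and 3.79. Dentate granule-like (3.40 and 3.46), subiculum-like (3.52 and 3.23), CA3-like (3.32 and 2.97) and cortex excitatory-like neurons (2.76 and 3.06) followed, and these neighbours did not lie apart from each other. The Adarb2 type had 2.79 and 2.10 and the Lhx6 type 2.26 and 2.13. The Cajal-Retzius-like (1.97 and 1.73) and immature neuron-like classes (1.81 and 1.54) lay below all other neurons and above every non-neuronal class. In the non-neuronal classes the level ran from 0.483 to 1.10, and astrocyte-like cells were lowest at 0.659 and 0.483. In CA1-like cells 97.7% and 97.9% of cells had a value above 0, and the median value was 4 in both libraries.

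Grin2a, the gene of the subunit that predominates in the mature forebrain, showed a stepwise order over the excitatory classes. Its level was 37.6 and 36.8 in CA1-like, 33.0 and 31.3 in dentate granule-like and 20.2 and 19.1 in CA3-like neurons. It was 14.9 and 14.1 in subiculum-like and 9.71 and 10.8 in cortex excitatory-like neurons, and all 5 of these classes lay apart from their neighbours in this order. CA1-like cells thus had 1.86-fold and 1.92-fold the level of CA3-like cells (0.1 added to both levels). Below the excitatory classes, the order was not resolved: the Adarb2 type had 7.40 and 5.69, the Lhx6 type 7.13 and 5.09, the immature neuron-like class 6.15 and 4.86 and the Cajal-Retzius-like class 5.70 and 3.39, while the 6 non-neuronal classes ran from 2.99 to 5.86. The interquartile range of the Grin2a value in CA1-like cells was 30.75 to 43 in wild-type and 29 to 42 in knock-in cells, and no CA1-like cell was at 0.

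Grin2b, the gene of the juvenile-type subunit with slower kinetics, was also highest in CA1-like neurons (21.7 and 22.03) and next in dentate granule-like neurons (16.7 and 16.0). The class after these was not an excitatory subfield but the immature neuron-like class, at 14.8 and 15.7. CA3-like neurons had 14.2 and 14.3, the Adarb2 type 14.1 and 13.3 and subiculum-like neurons 12.5 and 14.0. The Lhx6 type (9.27 and 9.63) and cortex excitatory-like neurons (9.38 and 11.5) were lowest among these neurons and did not lie apart. Cajal-Retzius-like cells stood out among neurons with 3.75 and 2.78, below astrocyte-like cells at 5.14 and 4.53.

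The balance of the paired genes was described by the share of Grin2a in the sum of Grin2a and Grin2b values, which can be compared between classes because gene length is the same in each. It was 66.5% and 66.1% in dentate granule-like, 63.4% and 62.5% in CA1-like and 58.7% and 57.1% in CA3-like neurons, 3 classes that lay apart in this order. Subiculum-like neurons had 54.5% and 50.2%, and cortex excitatory-like neurons, which did not lie apart from them, 50.9% and 48.2%. Interneuron-like cells of the named types lay lower, at 43.5% and 34.6% in the Lhx6 type and 34.4% and 29.9% in the Adarb2 type. Those of neither type, outside the 15 classes, had 73.1% and 73.4%, above every excitatory class named here. Immature neuron-like cells had the lowest share of the 15 classes, 29.4% and 23.7%, which is less than the dentate granule-like share by 37.1 percentage points in the wild-type library. In the non-neuronal classes and Cajal-Retzius-like cells, where both genes were low, the share ran from 39.8% in knock-in astrocyte-like cells to 62.2% in knock-in choroid plexus-like cells. With all values of 1 set to 0, the share in immature neuron-like cells was 28.4% and 22.5%, and that in dentate granule-like cells kept the values of 66.5% and 66.1%.

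**Figure D2:**
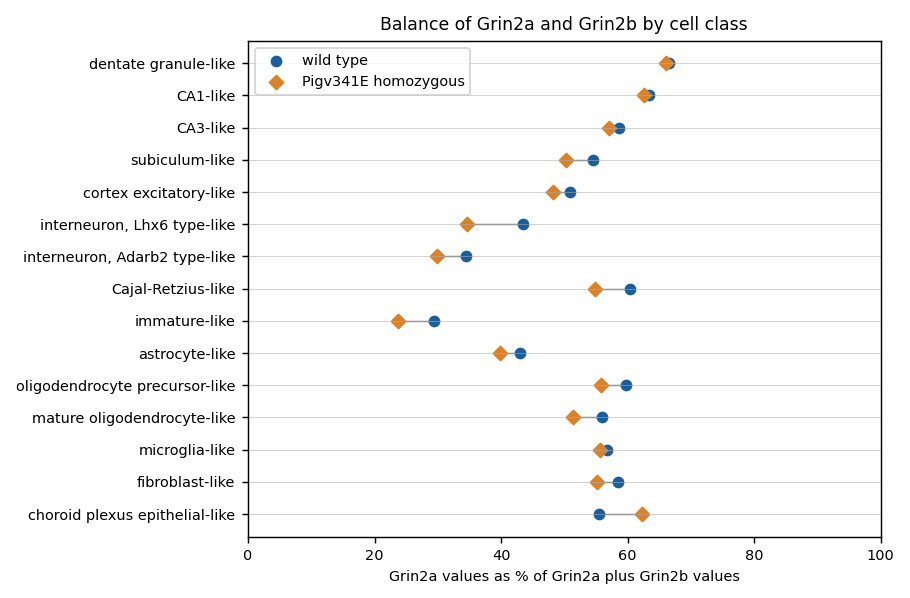
Grin2a values as a percentage of Grin2a plus Grin2b values (x axis) by cell class (y axis), 1 point per library. The excitatory classes descend from 66.5% in wild-type dentate granule-like to 48.2% in knock-in cortex excitatory-like cells, and immature neuron-like cells lie lowest at 29.4% and 23.7%.

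Interneuron-like cells were not uniform for these genes. They fell into 9 sub-clusters, also made without the 7 genes. Those led by Cntnap5b (Lhx6 type, 3 and 7 cells) and by Plpp3 (neither type, 1 and 8 cells, with 33.3% doublet calls) are not described for their size. The other 7 had 16 to 46 cells per library, and values over so few cells of 1 library are a description only. The sub-cluster led by Slit2, which also had Pvalb among its 10 leading genes, had a Grin2a level of 2.59 and 2.82 and a Grin2a share of 23.1% and 23.9%. The sub-clusters led by Kit and by Vcan, both with Lamp5 at 1.301 to 1.77 and assigned to neither type, had Grin2a levels of 18.7 and 21.9 and of 25.4 and 28.5. Their shares were 71.1% and 69.6% and 75.7% and 78.7%, above those of every excitatory class named here. Adarb2 itself was at 63.4 and 69.8 in the cells led by Kit and at 20.5 and 28.1 in those led by Vcan. The Adarb2 type thus does not hold all interneuron-like cells with Adarb2. Grin2b varied less, from 7.27 in the wild-type cells led by Zfpm2 to 15.2 in the wild-type cells led by Vip.

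The GluN3A gene Grin3a divided the same sub-clusters differently. It was 13.1 and 11.96 in the sub-cluster led by Sst, the gene of the peptide somatostatin, where the Sst level was 7.64 and 8.43. It was 5.30 and 4.78 in the sub-cluster led by Zfpm2, where Sst was 2.83 and 3.76. In the Pvalb-bearing sub-cluster led by Slit2, of the same Lhx6 type, it was 0.634 and 0.864. Within the Adarb2 type, the sub-cluster led by Vip, the gene of vasoactive intestinal peptide, had 3.09 and 2.10, while that led by Syt6, with Cnr1 at 14.0 and 11.6, had 0.335 and 0.690. The high level of the Lhx6 type as a whole thus came with a wide spread between its sub-clusters.

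**Figure D3:**
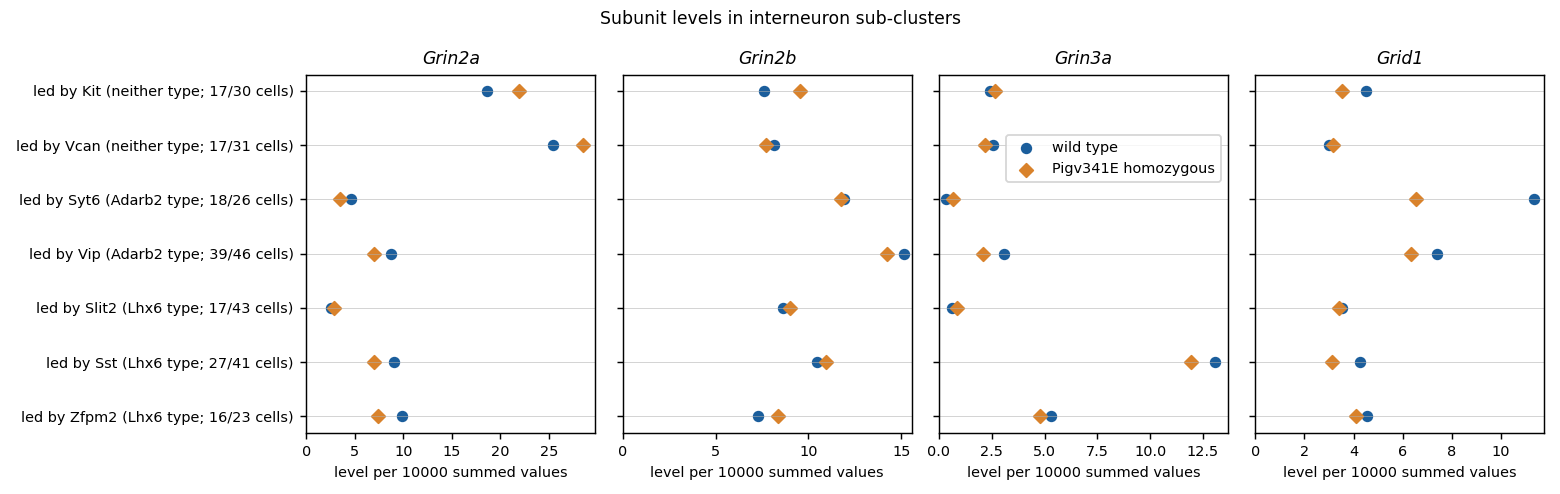
Levels of Grin2a, Grin2b, Grin3a and Grid1 (per 10000 summed values, x axes) in 7 interneuron-like sub-clusters (y axis, named by the gene of largest fold, with the type and the cells of each library, wild type before knock-in), 1 point per library. Grin3a is at 13.1 and 11.96 in the cells led by Sst, and Grin2a is above 18 only in the cells led by Kit and Vcan.

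Over the 15 classes, Grin3a was highest in Lhx6-type interneuron-like cells, at 7.09 and 5.69, followed by oligodendrocyte precursor-like cells at 5.09 and 5.24. Values above 0 occurred in 85.2% of the precursor-like cells of the wild-type library (exact Clopper-Pearson 95% interval 79.7 to 89.7) and in 90.4% of those of the knock-in library (86.5 to 93.5). These intervals, here and below, cover only the drawing of cells within 1 library and not differences between mice. Thinning every cell at random to 4000, which treats the corrected values as if they were counts, gave 73.8% and 82.4%. The corresponding shares in microglia-like cells, which served as the background class, were 3.46% and 7.78%, or 2.56% and 5.46% when thinned, with similar medians of detected genes (2499 and 2939 against 2423 and 2733 in the precursor-like class). Mature oligodendrocyte-like cells had a Grin3a level of 0.106 and 0.151, so the precursor-like class had 25.2-fold and 21.2-fold the level of the mature class with 0.1 added. Among the excitatory classes, Grin3a went from 1.68 and 1.19 in cortex excitatory-like, through 0.872 and 1.16 in subiculum-like, 0.661 and 0.801 in CA1-like and 0.355 and 0.505 in dentate granule-like cells, to 0.0982 and 0.115 in CA3-like cells. CA3-like cells were the lowest of the 15 classes in the knock-in library and 13th in the wild-type library, below which lay microglia-like cells at 0.0926 and choroid plexus-like cells at 0.0746. The share of CA3-like cells above 0 was 7.33% and 8.72%, against 3.46% and 7.78% in microglia-like cells. These classes were not alike in medians of detected genes (4079.5 and 4234.5 against 2499 and 2939).

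Grin2c, the gene of a GluN2 subunit best known from cerebellar granule cells, was by far highest in astrocyte-like cells. Its level there was 1.41 and 1.46, with a value above 0 in 51.9% of wild-type (interval 47.7 to 55.9) and 55.6% of knock-in cells (52.1 to 59.0), and a value of 2 or more in 31.0% and 30.4%. In the other 14 classes no level exceeded 0.0516. In microglia-like cells, with medians of detected genes of 2499 and 2939 against 2546 and 2712 in astrocyte-like cells, 0.452% and 1.28% of cells had a value above 0. In the Adarb2 type the count was 0 of 57 and 0 of 72 cells, which allows a share of up to 6.27% and 4.99% of cells with a value above 0. This is no limit on the share of cells that express the gene, since the depth is unknown. Grin2c and Grin3a would have been among the variable genes, but they took no part in the clusters used here.

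The astrocyte-like class held a pair of clusters that differed for these genes. In the larger, led by Rgs20 (505 and 707 cells), Grin2c was 1.56 and 1.64 and Grin3a 1.499 and 1.59. In the smaller, led by Myoc with Gfap and Aqp4 among its leading genes (89 and 108 cells), Grin2c was 0.592 and 0.319 and Grin3a 2.83 and 4.01. The order of the clusters was thus opposite for the 2 genes, in both libraries. Grin2a was 3.04 and 2.60 in the larger and 8.53 and 5.58 in the smaller cluster, where the summed level of 4 neuron markers (Snap25, Syt1, Rbfox3 and Meg3) was 15.9 and 18.0 against 11.219 and 11.999. The smaller cluster also had 9.14% of its cells called as doublets. The part of either in these levels was not tested.

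Grin2d, whose subunit gives slow channels with a weak magnesium block, was highest in interneuron-like cells. Its level was 1.26 and 0.944 in the Adarb2 type and 0.805 and 0.885 in the Lhx6 type. Values above 0 occurred in 70.2% and 61.1% and in 60.3% and 66.7% of cells. Interneuron-like cells of neither type (35 and 69 cells), left out of the ranking for their size, had 1.18 and 1.001. They were thus above the Adarb2 type in the knock-in library and did not lie apart from it. Fibroblast-like cells came next, at 0.599 and 0.782 and with 33.9% and 37.9% of cells above 0, and lay apart from Cajal-Retzius-like cells at 0.506 and 0.427. The excitatory classes ran from 0.168 in knock-in CA3-like to 0.390 in knock-in cortex excitatory-like cells. Only 1.79% and 2.88% of CA1-like cells had a value of 2 or more, against 29.8% and 23.6% in the Adarb2 type. Choroid plexus-like cells were lowest, at 0.0187 and 0.0608.

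**Figure D4:**
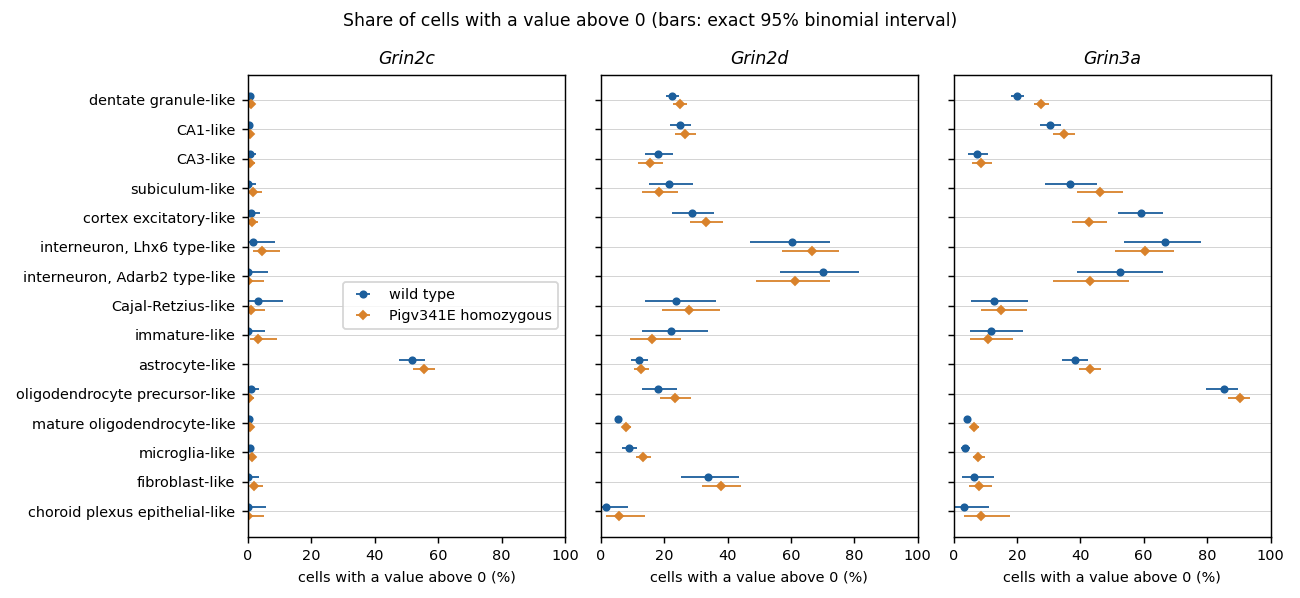
Percentage of cells with a value above 0 (x axes) for Grin2c, Grin2d and Grin3a in the 15 classes (y axis), 1 point per library with its exact 95% binomial interval. Grin2c passes 50% in astrocyte-like cells and stays under 5% elsewhere, Grin2d passes 60% in both interneuron-like types, and Grin3a passes 85% in oligodendrocyte precursor-like cells.

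Grid1, the gene of the delta receptor GluD1, was highest outside neurons. Its level was 12.9 and 11.7 in oligodendrocyte precursor-like cells, where 99.5% and 99.7% of cells had a value of 2 or more and the median value was 10 and 9. Among neurons it was highest in the Adarb2 type (8.69 and 6.43) and in cortex excitatory-like neurons (7.67 and 7.48), which did not lie apart. Dentate granule-like neurons had 5.98 and 5.49, apart from CA1-like (4.48 and 4.42) and CA3-like neurons (4.42 and 3.93). Astrocyte-like cells, at 3.797 and 3.58, overlapped with subiculum-like neurons at 3.72 and 3.63. Mature oligodendrocyte-like cells had 1.70 and 1.69, so the precursor-like class had 7.21-fold and 6.57-fold their level with 0.1 added. Choroid plexus-like cells were lowest, at 1.40 and 1.02. Both Grid1 and Grin3a were thus high in precursor-like and low in mature oligodendrocyte-like cells, and their levels over the 15 classes had a correlation of log2 levels of 0.75 and 0.68.

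In the 6 non-neuronal classes, Grin1 stood at 12.7% to 27.8% of its CA1-like level, Grin2a at 8.14% to 15.6% and Grin2b at 10.0% to 23.7%. General neuron markers were found in the same classes: Snap25 at 39.9% to 73.4% of its CA1-like level, Syt1 at 16.0% to 31.9%, Rbfox3 at 14.8% to 30.5% and Meg3 at 14.6% to 34.2%. No neuron marker was at 0, and the summed level of the 4 markers ran from 11.9 to 24.7 in the non-neuronal classes and from 33.3 to 96.98 in the neuronal ones. In microglia-like cells, Grin2a was 1.89 and 2.69 in the cluster led by P2ry12, 7.15 and 6.42 in that led by Arhgap45 and 11.7 and 9.33 in that led by Cst3. The summed neuron markers followed the same order in these 3 clusters, at 8.64 and 13.1, 27.0 and 28.5, and 53.0 and 45.2. The part of neuronal transcripts in the non-neuronal levels of Grin1, Grin2a and Grin2b was not tested. Grin3a was at 770% and 654% of its CA1-like level in precursor-like cells and at 258% and 238% in astrocyte-like cells. That CA1-like level was itself low, at 0.661 and 0.801. The precursor-like level of Grin3a lay below the 7.09 and 5.69 of the Lhx6 type. Grid1 in precursor-like cells was at 287% and 264% of its CA1-like level.

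Among the unnamed clusters with at least 50 cells in each library, that led by Pde11a (117 and 292 cells) had 6 of 8 CA1 markers and Grin2a at 22.6 and 23.3. Grin2b there was 17.2 and 18.6, Grin3a 1.88 and 1.90, and the Grin2a share 56.8% and 55.6%. The cluster led by Unc5d (122 and 458 cells) had a Grin2a share of 49.8% and 46.1%, and that led by AC060761.1 (110 and 82 cells) of 59.5% and 55.6%. In the cluster led by 6330411D24Rik with Lef1 and Otx2os1 (82 and 218 cells), Grin2d was 0.743 and 0.830, near the level of the Lhx6 type. The fifth such cluster, led by mt-Rnr2 and by other mitochondrial genes (195 and 148 cells), had Grid1 at 5.32 and 3.10, a log2 ratio of knock-in over wild type (0.1 added) of -0.76, in a cluster where 9.22% of all genes reached 2-fold under the limits given below.

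By the correlation of log2 levels over the 15 classes, taken in each library by itself among 4880 genes, the gene most like Grin1 was Pacsin1 (r 0.96 and 0.96), which encodes an endocytic protein of neurons. For Grin2a it was Camk2a (0.96 and 0.98), the gene of a kinase abundant at excitatory synapses, followed by the potassium channel genes Kcnj6 and Kcnab2. For Grin2b it was Rbfox3 (0.92 and 0.91), a neuronal splicing factor gene, followed by Syndig1 and Morn1. Grin2c was most like Gm35552 (0.99 and 0.98), Gm6145 and Acsbg1, and Grin2d most like Prpf6 (0.90 and 0.85), Rbms3 and Ankrd55. Grin3a was most like Gm13052 (0.86 and 0.82), Ntm and Spry4, and Grid1 most like Fgf14 (0.90 and 0.91), Csmd1 and Plppr5. Among the 7 genes themselves, Grin1 and Grin2a had 0.85 and 0.83, Grin1 and Grin2b 0.86 and 0.83, and Grin2a and Grin2b 0.82 and 0.78. The points of each correlation share a library and fall into neuronal and non-neuronal classes, so these values are a description.

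In the 15 classes, no gene of the 7 passed the size rule used between the libraries. The rule asks for a ratio of at least 2-fold, a level of 1 or more in either library and, there, 10% or more of the cells above 0. Of 105 combinations of gene and class, 64 met the limits on level and cells and 0 passed the ratio, against 0.923% of the 30757 combinations over all genes that met the limits. Beside so low a share, 0 of 64 is not a result about the receptor genes. In dentate granule-like cells, log2 ratios of knock-in over wild type (0.1 added to both levels) were 0.02 for Grin1, -0.08 for Grin2a, -0.05 for Grin2b and -0.12 for Grid1. In CA1-like cells they were -0.06, -0.03, 0.02 and -0.02 for the same genes, and those of Grin2a and Grid1 changed sign under other processing choices. In CA3-like cells they were -0.16, -0.08, 0.01 and -0.17. With 1 library per genotype these ratios have no error between mice. Of the named classes with fewer than 50 cells in a library, the ependymal-like class (18 and 14 cells) had Grin2b at 1.54 and 3.22, a log2 ratio of 1.02 that passed the rule, as did 17.8% of the 2564 genes that met the limits there. No other receptor gene passed it in such a class.

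Among the 64 combinations, the farthest from equal was Grin2a in Cajal-Retzius-like cells (63 and 101 cells), at 5.70 and 3.39, a log2 ratio of -0.74. It was the only 1 of the 64 past 1.5-fold, a size that 4.31% of all combinations of gene and class passed and that 6.03% of the 2122 genes of this class passed downward. The median Grin2a value of these cells was 2 in both libraries, and the largest was 36 in both. Grin2b and Grid1 had log2 ratios of -0.42 and -0.38 there. In the Adarb2 type all 6 genes that met the limits had ratios below 0, from -0.08 for Grin2b to -0.45 for Grin3a. Their median was -0.39 beside -0.06 over the 2117 genes of the class, of which the middle 95% ran from -0.61 to 0.62. The share of those 2117 genes below 0 was not counted. All receptor genes that met the limits were also below 0 in Cajal-Retzius-like (4 genes), microglia-like (4) and fibroblast-like cells (3). The 6 are therefore not particular to the Adarb2 type. In the Lhx6 type, Grin2a was at -0.48, Grin3a at -0.31 and Grid1 at -0.29. The makeup of this type differed between the libraries, since the sub-cluster led by Slit2, the lowest of the 3 described for this type in Grin2a and Grin3a, was 17 of 63 and 43 of 114 cells. Grin2a was 9.09 and 7.02 in the sub-cluster led by Sst, 9.86 and 7.34 in that led by Zfpm2 and 2.59 and 2.82 in that led by Slit2, and Grin3a was also higher in the knock-in cells of the last (0.634 and 0.864). The part of the makeup in the ratios of the whole type was not tested. Grin3a in cortex excitatory-like cells was at -0.47, and its 2 clusters separately had 1.23 and 0.770 (led by Gm28928, 105 and 224 cells) and 2.23 and 2.08 (led by Vwc2l, 86 and 105 cells).

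**Figure D5:**
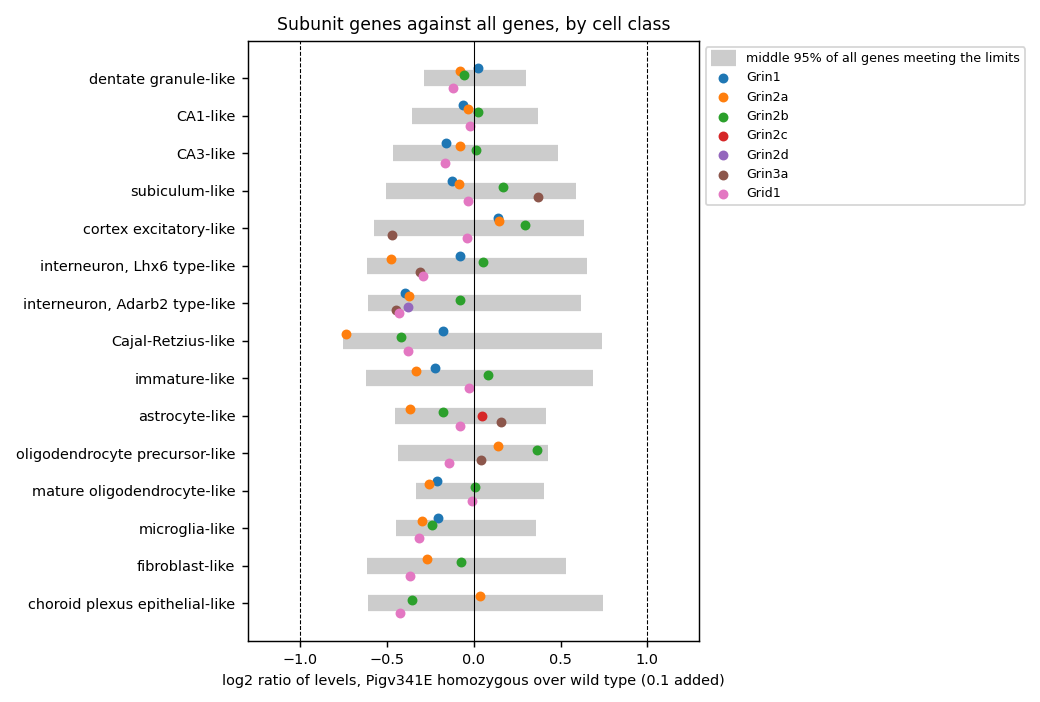
Log2 ratio of levels, knock-in over wild type (x axis), for the genes that met the limits in each class (y axis, coloured points), with the middle 95% of all genes of the class that met the limits as a grey bar and 2-fold as dashed lines. No point reaches a dashed line, and Grin2a in Cajal-Retzius-like cells, at -0.74, is the farthest from 0.

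Of the 64 combinations, 17 had a ratio above 0 and 47 below 0. The medians over all genes tested in a class also lay mostly below 0, from -0.10 in microglia-like to 0.002 in immature neuron-like cells. The share of all combinations of gene and class below 0 was not counted, so the 47 are not a result about the receptor genes. The Grin2a share of Grin2a plus Grin2b was lower in the knock-in library in 14 of the 15 classes, by 0.344 percentage points in dentate granule-like and by 8.92 in Lhx6-type cells, and higher in choroid plexus-like cells. Within the Lhx6 type the share was 46.5% and 39.1% in the sub-cluster led by Sst, 57.6% and 46.7% in that led by Zfpm2 and 23.1% and 23.9% in that led by Slit2, so it was lower in 2 of these 3. All 15 comparisons come from the same pair of libraries and are not independent of each other. How often the balance of other gene pairs shifted the same way was not counted. The 14 of 15 are therefore not a result about Grin2a and Grin2b. The libraries also differed in detected genes per cell and in the mitochondrially encoded share, as given above, and the part of these in the ratios was not tested.

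Genes that act with these receptors were taken in lists by role and described by the same rule. Of 14 scaffold and auxiliary genes, 12 kinase and effector genes and 12 trafficking and surface genes, 152, 100 and 71 combinations with a class met the limits. In CA1-like cells, the medians of the 3 lists were -0.11, -0.09 and -0.14, beside -0.05 over all genes tested there. Among the combinations of the 15 classes the numbers past 2-fold were 0, 0 and 1, beside 0.923% of all combinations that met the limits. Ratios below 0 numbered 117, 73 and 47. The share of all combinations below 0 was not counted, and class medians over all genes were mostly below 0 too. These numbers are therefore not a result about the lists. The co-agonist list, with the serine racemase gene Srr and glycine transporter genes, had 4 combinations above the limits and 0 past 2-fold. The combination past 2-fold was Erbb4, the gene of a neuregulin receptor, in Cajal-Retzius-like cells, at 0.394 and 1.69, a log2 ratio of 1.86, in a class where 1.70% of all genes passed.

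Over all cells together, where 0.289% of 2075 genes passed the size rule, none of the 4 receptor genes that met the limits did, with levels of 2.32 and 2.17 for Grin1, 17.0 and 14.6 for Grin2a, 10.7 and 10.4 for Grin2b and 4.30 and 4.04 for Grid1. The listed genes farthest from equal were Reln, the gene of the secreted protein reelin and a Cajal-Retzius marker, at 0.860 and 1.42 (log2 0.66), Ephb2, a receptor that binds NMDA receptors at the surface, at 0.908 and 0.648 (-0.43, under the limit on level), and Rasgrf1, an exchange factor for Ras, at 3.72 and 2.95 (-0.32). Over all cells, a different number of cells of a type and a different level per cell cannot be told apart. In the unnamed clusters, Ephb2 was at 2.05 and 0.825 in that led by Unc5d, and Homer1, a scaffold gene, at 3.71 and 1.71 in that led by AC060761.1, where 3.04% and 1.04% of all genes passed the rule. Grin3b, the gene of the other GluN3 subunit, had values above 0 in 22 and 33 cells.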

How the data were processed

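The authors deposited 1 table of 30223 genes by 15930 cells whose score values, as deposited, are whole numbers corrected for depth; they are not raw counts, so no count model and no test between genotypes was used. Per the submitters' processing notes, Seurat 3.0.0 and GRCm38 were used; the aligner and the filters on cells are not given in the sources used here.

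Cells of both libraries were clustered together with scanpy 1.11.5 under Python 3.11.15, from 2000 variable genes without the 7 receptor genes and without sex-linked genes, with 30 principal components, 15 neighbours and Leiden resolution 1, which gave 36 clusters. A cluster's name needed 3 or more markers and 50% of the list, where markers had to be above 0 in 25% of the cells at 1.5 times the level elsewhere. The rule for names was made with the clusters in view, and the receptor genes and gene lists were chosen with earlier results of these data known. No cell was removed. Scrublet called 61 wild-type (0.860%) and 209 knock-in cells (2.37%) as doublets. The size rule was tested on simulated data. All 7 receptor genes are named, with the 3 genes most like each, the listed genes past the size rule, unnamed clusters included, and the 3 listed genes of largest change over all cells.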

Additional observations from a re-analysis of the deposited data

How the results depend on the processing

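With no replicate libraries, no result has an error between mice, and leaving out a replicate was not possible. No paired analysis was possible because each genotype is 1 library. The number of combinations of receptor gene and class past the size rule stayed at 0 under a finer clustering, 15 principal components, the receptor genes allowed in the clustering, values of 1 set to 0, equal weights for cells or clusters, doublet calls left out, a filter on cells that removed 50 cells, other pseudocounts and other minimum levels. It was 1 at 1.5-fold in place of 2-fold, Grin2a in Cajal-Retzius-like cells. It was also 0 with mitochondrial, ribosomal and a few single genes left out of the total, an alternative chosen after seeing the data. The same top class in both libraries, lying apart from the next, was recomputed under the clustering, value, weight, doublet and cell-filter settings only. Among the classes compared in each setting, it held for 7 genes in each except 15 principal components. There it held for 6, Grin2d being the exception. The span of the Grin2a share of Grin2a plus Grin2b, 37.1 percentage points in the wild-type library, became 23.5 with 15 principal components, where the immature neuron-like class was not formed and the Adarb2 type, the top class of Grin2d, had fewer than 50 cells in a library, so that neither was compared. Of the 64 log2 ratios that met the limits, 53 kept their sign in every alternative, 40 below 0 and 13 above, and 11 changed sign, among them Grin2a and Grid1 in CA1-like cells, both near 0. A kept sign need not hold within each cluster of a class. Grin2a in microglia-like cells was at -0.30, yet higher in the knock-in cells led by P2ry12 (1.89 and 2.69) and lower in those led by Arhgap45 and Cst3. The cluster led by Cst3 was 167 of 664 and 116 of 861 cells. The part of this makeup was not tested. The alternative without clusters over 80% from 1 library was not run, since the largest share was 75.1%. The Grin2a share was lower in the knock-in library in 14 of 15 classes, in 13 at resolution 2 and in 12 of 13 with 15 principal components. Other gene pairs were not counted under any setting, so these counts are not a result about Grin2a and Grin2b.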
